A study of Homo sapiens with 6 samples.

Results

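The semaphorins and their plexin receptors, the ephrins and their Eph receptors, the slits and their Robo receptors, and the netrins and their UNC5 receptors were examined in SUM159 cells with stable knockdown of TβRIII (TβRIII-KD) and in control SUM159 cells. Members were the genes whose symbol starts with SEMA, PLXN, EPHA, EPHB, EFNA, EFNB, ROBO or UNC5, or with SLIT or NTN followed by a digit. This rule took 66 of the 18276 genes measured on the arrays. It also takes UNC50 and UNC5CL, which share letters with the netrin receptors but are not guidance receptors, and both are counted here because the rule holds them.

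SUM159, an established breast cancer line of human origin, serves as a model of mesenchymal stem-like triple negative breast cancer. RNA came from 3 TβRIII-KD and 3 control samples at day 6 of three-dimensional growth in matrigel, and all 6 samples are labelled as the same cell line. According to the methods, the line named TβRIII-KD carries 1 lentiviral shRNA clone against TGFBR3, the gene of TβRIII, and was selected with puromycin, while the labels say only "control" for the other group. Each group is therefore 1 cell population, and the knockdown cannot be told apart from other ways in which the populations differ.

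These genes were first known for steering growing axons and are also used by epithelial, vascular and tumor cells. Semaphorins, slits and netrins are ligands that are mostly secreted or held on the membrane, and they bind receptors that act on small GTPases and the actin cytoskeleton, so that a cell edge retracts or advances. Class 3 semaphorins are secreted and bind a neuropilin together with an A-type plexin, with SEMA3E as the exception that can bind plexin D1 directly. Ephrins stay on the cell surface and signal to Eph receptor tyrosine kinases on a touching cell. In breast epithelium and breast cancer, these families are known for effects on branching, cell contact and migration.

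Values are the deposited log2 RMA signals, and a difference is the mean of TβRIII-KD minus that of control, a log2 fold change. The medians of the 6 arrays differed by at most 0.036. The cutoff was an adjusted p under 0.05 (limma, two-sided, Benjamini-Hochberg adjustment over all transcript clusters) with an absolute log2 fold change over 0.5. It was passed by 172 transcript clusters with a higher signal in TβRIII-KD (0.777% of 22148) and by 329 with a lower one (1.49%), which came to 141 and 284 genes. TGFBR3 itself was lower, at 9.72, 10.01 and 10.16 in TβRIII-KD against 10.81, 10.89 and 10.56 in controls (log2 fold change -0.79, SE 0.13, adjusted p = 0.0145), and its adjusted p lay above 0.05 when TβRIII-KD 2, control 1 or control 2 was dropped, at 0.0625, 0.0770 and 0.0554 (0.00872 to 0.198 over all alternatives). The 7 measured markers of the mesenchymal-like line, VIM and CD44 among them, all had mean signals above the median of the table. Of 6 endothelial markers, KDR and PECAM1 were lower past the cutoff, with log2 fold changes of -1.73 and -1.04. CDH5, VWF, TEK and CLDN5 did not pass it, at -0.16, 0.08, 0.06 and 0.05. The mean signal of the whole endothelial list was 6.60 to 6.82 in TβRIII-KD arrays and 7.07 to 7.23 in control arrays. No marker of the epithelial, leukocyte or neuron lists passed the cutoff. Mean signals above the median of the table were also found for 2 of 8 epithelial markers (KRT8 and KRT18). The same held for 1 of 5 leukocyte markers (CD68), 1 of 6 endothelial markers (KDR) and 0 of 5 neuron markers. The part of these marker differences in the values below was not tested. The second principal component, with 21.9% of the variance, set TβRIII-KD 3 off from the rest. Nothing in the labels says that the arrays of a group came from separate cultures, so the p-values take in no more than the spread among these arrays, and that may be technical. In a bulk culture, fewer cells that make a transcript and less of it per cell cannot be told apart.

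Guidance genes that passed the cutoff were all higher in TβRIII-KD. They were the Eph receptor EPHB6, the plexin PLXNA2, the secreted semaphorins SEMA3A and SEMA3E, and the secreted ligand SLIT2. These 5 of 66 members are 7.58%, where 0.772% of all genes were higher past the cutoff. Of the members, 0 were lower, where 1.55% of all genes were. Before adjustment, 14 of the members had a limma p under 0.05 in either direction, where 15.6% of all genes did. Without the fold limit, 8 members were higher at an adjusted p under 0.05, which is 12.1% of the list against 1.26% of all genes, and PLXNB1, PLXNB2 and SEMA5A joined the others. Again 0 were lower, against 2.22% of all genes.

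An absolute log2 fold change under 0.25 was found for 53 of the 66 members, or 80.3%, against 87.1% of all genes. The median log2 fold change was 0.05 over the members (quartiles -0.02 and 0.14) and 0.01 over all genes. The value lay above 0 in 44 members, or 66.7%, as in 54.5% of all genes. Every TβRIII-KD array lay above every control array for 15 members (22.7%, against 10.2% of all genes) and below every control array for 4 (6.06%, against 11.0% of all genes). Besides the 8 genes above, the higher ones were SEMA3B, SEMA3F, NTN4, EFNB3, EPHA3, EPHA10 and EPHB3, and the lower ones were EFNA1, EFNB1, PLXNA1 and SEMA4F. Among 14 secreted ligands, 3 were higher past the cutoff (21.4%, against 0.772% of all genes) and the median was 0.15. Among 20 membrane-bound ligands the count was 0 in limma with a median of 0.02. Of these 20, 2 had an unadjusted limma p under 0.05, where 15.6% of all genes did. Among 30 receptors the count past the cutoff was 2 (6.67%) with a median of 0.06. Whether these classes differ from each other was not tested.

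**Figure D1:**
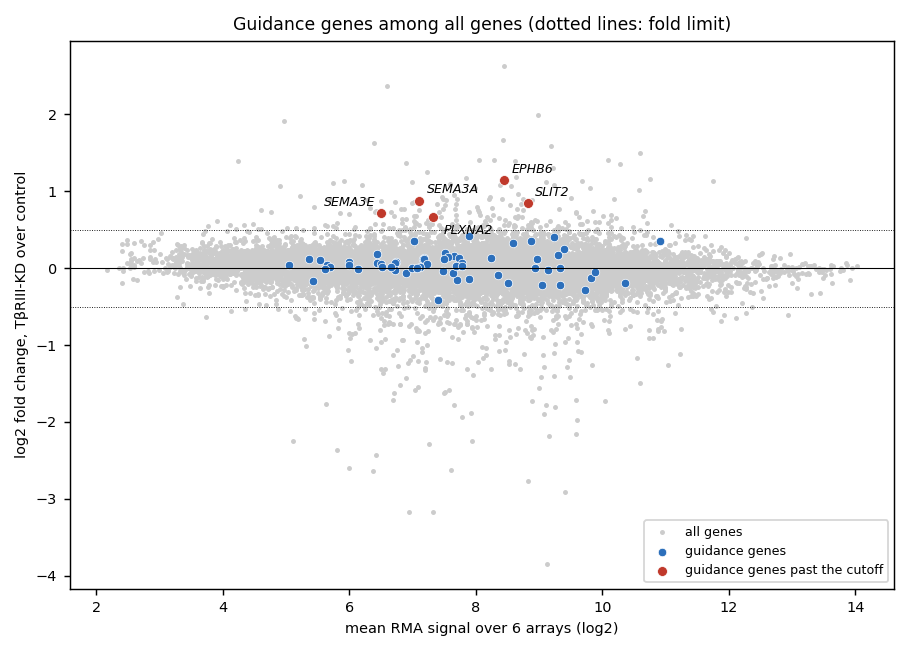
Log2 fold change between TβRIII-KD and control, above 0 where TβRIII-KD was higher (vertical axis) against the mean log2 signal of 6 arrays (horizontal axis), with 1 dot per gene, all genes in grey, guidance genes in blue and those past the cutoff in red. The 5 red genes lie above the upper fold limit of 0.5, and no guidance gene lies below the lower one.

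The starts of the genes that passed the cutoff are shown as each of these members was higher in TβRIII-KD. Whether they are regulated together was not tested. RefSeq promoter windows of GRCh38.p14 were matched for 57 of the 66 members and for 4 of the 5 that passed the cutoff. SEMA3A had no window and is not shown. The 250 bases before the gene start are printed 5′ to 3′ on the strand of the gene, and capitals mark 3 motifs searched on both strands. They are the GC box GGGCGG bound by SP1-type factors, the SMAD-binding letters CAGAC, and the TATA-type run TATAA. SEMA3E has 2 windows in the table, and the more upstream one is shown.
EPHB6 (chr7:142862506-142862755, plus strand): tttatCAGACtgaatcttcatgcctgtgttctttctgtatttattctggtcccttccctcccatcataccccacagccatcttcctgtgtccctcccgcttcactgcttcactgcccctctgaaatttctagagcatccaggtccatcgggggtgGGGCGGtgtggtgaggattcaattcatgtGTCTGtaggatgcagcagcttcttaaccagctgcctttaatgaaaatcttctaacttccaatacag
PLXNA2 (chr1:208244385-208244634, minus strand): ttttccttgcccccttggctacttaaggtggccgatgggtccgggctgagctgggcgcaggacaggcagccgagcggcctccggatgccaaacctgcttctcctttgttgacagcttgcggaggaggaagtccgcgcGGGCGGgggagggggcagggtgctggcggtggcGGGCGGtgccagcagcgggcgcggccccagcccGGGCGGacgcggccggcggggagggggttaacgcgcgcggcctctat
SEMA3E (chr7:83649140-83649389, minus strand): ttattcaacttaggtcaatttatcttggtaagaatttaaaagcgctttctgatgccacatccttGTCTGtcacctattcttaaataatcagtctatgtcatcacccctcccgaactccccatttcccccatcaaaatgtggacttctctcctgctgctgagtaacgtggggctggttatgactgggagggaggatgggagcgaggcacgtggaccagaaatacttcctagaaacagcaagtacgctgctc
SLIT2 (chr4:20251655-20251904, plus strand): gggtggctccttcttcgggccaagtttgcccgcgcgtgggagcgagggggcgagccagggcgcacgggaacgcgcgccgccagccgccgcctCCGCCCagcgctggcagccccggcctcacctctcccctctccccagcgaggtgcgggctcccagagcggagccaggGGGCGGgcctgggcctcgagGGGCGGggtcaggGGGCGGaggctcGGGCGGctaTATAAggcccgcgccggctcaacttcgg

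The printed windows of these 4 genes differed in base composition. The windows of PLXNA2 and SLIT2 had a GC content of 72.4% and 77.2% with 27 and 30 CG pairs, and those of EPHB6 and SEMA3E had 48.0% and 46.4% with 3 and 6 CG pairs. The median over all 35116 windows of the table was 58.0% and 11 CG pairs, and over the 88 windows of the members it was 64.8% and 17. GGGCGG was found 5 times in SLIT2, 3 times in PLXNA2 and 1 time in EPHB6, and at least once in 42.6% of all windows and 70.5% of the members' windows. CAGAC was found 2 times in EPHB6 and 1 time in SEMA3E, and in 38.0% of all windows and 35.2% of the members' windows. TATAA was found in SLIT2, starting 28 bases before the gene start, and at least once in 18.9% of all windows and 9.09% of the members' windows. No motif was in all 4 windows. The second SEMA3E window, which is not printed, had a GC content of 34.8% with 1 CG pair and held CAGAC 2 times and TATAA 1 time, the TATAA at 159 bases before that start. A match of letters is a description and shows no bound factor.

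Class 3 semaphorins, the secreted semaphorins that signal through neuropilins and plexins, had a median log2 fold change of 0.35 over 7 genes. The median over all genes was 0.01. Of the 7 genes, 2 passed the cutoff (28.6%), where 0.772% of all genes were higher past it. SEMA3A, the founding repellent of this class, had a log2 signal of 7.68, 7.28 and 7.68 in the TβRIII-KD arrays, against 6.34, 6.84 and 6.83 in the control arrays. The groups did not overlap, and control 1 was the lowest array. The rise of SEMA3A was 0.88 in log2 units, with an SE of 0.16 and an adjusted p of 0.0227 from limma, a 1.84-fold higher signal. SEMA3E, the plexin D1 ligand, was at 6.77, 6.92 and 6.92 in TβRIII-KD and at 5.91, 6.26 and 6.28 in controls. Its groups were also apart, again with control 1 lowest. SEMA3E rose by 0.72 (SE 0.11, adjusted p = 0.0109), or 1.64-fold. The mean signal of SEMA3E lay at percentile 27.3 of all transcript clusters and that of SEMA3A at 38.5. Both are below the median, and no detection call was used. The adjusted p of SEMA3A was 0.0715 without TβRIII-KD 1 and 0.0627 without control 1 (0.0164 to 0.238 over all alternatives), and that of SEMA3E was 0.0603 without TβRIII-KD 2 (0.00316 to 0.168).

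SEMA3B and SEMA3F, class 3 semaphorins described as tumor suppressors of lung cancer, did not pass the test. SEMA3B was at 7.22, 7.18 and 7.22 in TβRIII-KD and at 6.94, 6.61 and 7.01 in controls, with a log2 fold change of 0.35 (SE 0.11 and adjusted p = 0.139). SEMA3F was at 8.95, 9.18 and 9.03 in TβRIII-KD and at 8.83, 8.82 and 8.46 in controls, with a log2 fold change of 0.36 (SE 0.12 and adjusted p = 0.165). In both genes the groups did not overlap, with TβRIII-KD on the higher side. SEMA3C was at 9.64, 9.29 and 9.62 in TβRIII-KD and at 9.34, 9.32 and 9.16 in controls, where TβRIII-KD 2 lay among the controls (log2 fold change 0.25, adjusted p = 0.328). SEMA3D and SEMA3G had log2 fold changes of 0.02 and 0.00.

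SEMA3E and SEMA3A lie side by side on chromosome 7 in the RefSeq gene order, with SEMA3D on one side and PCLO, CACNA2D1, HGF and SEMA3C on the other. The other 5 genes of this run did not pass the test. The log2 fold changes of SEMA3C, HGF, CACNA2D1 and PCLO were 0.25, -0.19, -0.18 and -0.28, and that of SEMA3D was 0.02. A rise past the cutoff was thus measured in the 2 adjacent semaphorins. The next gene on each side had values of -0.28 (SE 0.09, adjusted p = 0.156) and 0.02 (SE 0.07, adjusted p = 0.931). For PCLO and CACNA2D1, every TβRIII-KD array lay below every control array.

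**Figure D2:**
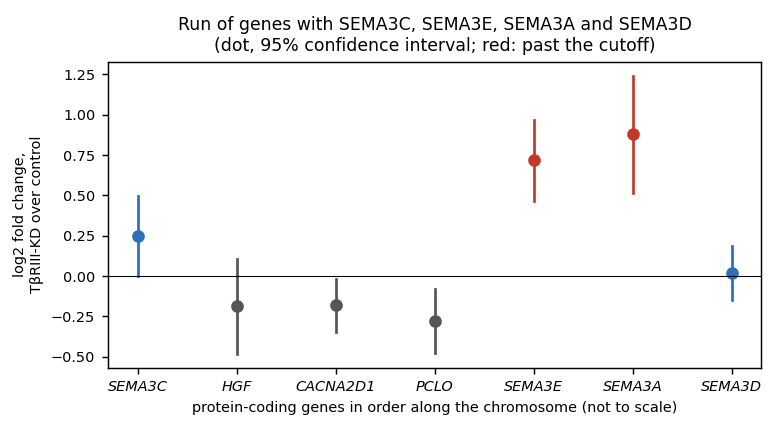
Log2 fold change between TβRIII-KD and control (vertical axis) for 7 protein-coding genes in their order along chromosome 7 (horizontal axis, not to scale), where each dot is the fold change and each line spans the 95% confidence limits of the limma fit, with 3 arrays in each group. SEMA3E (0.72) and SEMA3A (0.88) in red lie above the other genes.

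Among the 12 semaphorins of classes 4 to 7, which are membrane-bound, 1 was higher in the test without the fold limit (8.33%, against 1.26% of all genes). SEMA5A, a semaphorin with thrombospondin repeats, was at 8.11, 7.94 and 8.26 in TβRIII-KD and at 7.72, 7.64 and 7.71 in controls. All TβRIII-KD arrays were above all control arrays. The rise was 0.42 (SE 0.09, adjusted p = 0.0490), and its adjusted p lay above 0.05 without any 1 array except TβRIII-KD 2 (0.0308 to 0.219 over all alternatives). The other 11 lay between -0.17 for SEMA6A and 0.19 for SEMA4D, a ligand of plexin B1. SEMA4D has 2 transcript clusters, and the dimmer one had a log2 fold change of -0.04.

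**Figure D3:**
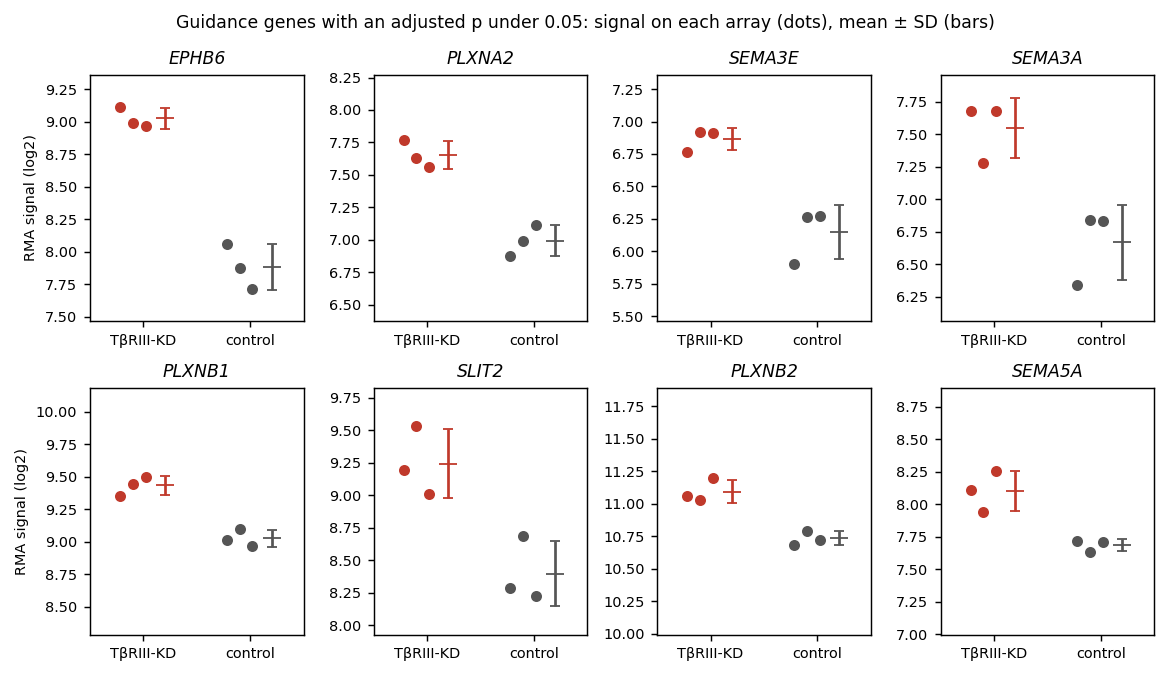
RMA signal (log2, vertical axis) of the 8 guidance genes with an adjusted p under 0.05, with 1 dot per array, TβRIII-KD in red and control in grey, and, next to the dots, the group's mean ± SD (n = 3). All vertical axes span the same range, and in each of the 8 genes every TβRIII-KD array lies above every control array.

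Of the 9 plexins, the receptors of semaphorins, 3 rose at an adjusted p under 0.05 and 1 of them passed the fold limit. The 3 are 33.3% of the plexins, where 1.26% of all genes were higher at an adjusted p under 0.05. The log2 fold change lay below 0 in 5 of the 9. PLXNA2, which pairs with neuropilins and also binds class 6 semaphorins, was at 7.77, 7.63 and 7.57 in TβRIII-KD and at 6.87, 6.99 and 7.11 in controls. The lowest TβRIII-KD array lay above the highest control array. PLXNA2 rose by 0.66 (SE 0.09, adjusted p = 0.00709), a 1.58-fold higher signal, and stayed past the cutoff without any 1 array. PLXNB1, the SEMA4D receptor, rose by 0.41 (SE 0.08, adjusted p = 0.0251), with 9.35, 9.44 and 9.50 in TβRIII-KD and 9.01, 9.10 and 8.97 in controls. PLXNB2, a class 4 semaphorin receptor, rose by 0.36 (SE 0.08, adjusted p = 0.0451), with 11.06, 11.03 and 11.20 in TβRIII-KD and 10.69, 10.79 and 10.72 in controls. The groups did not overlap for either gene. The adjusted p of PLXNB1 lay above 0.05 without any 1 array except TβRIII-KD 1 (0.0141 to 0.122 over all alternatives), and that of PLXNB2 lay above it without any 1 array (0.0256 to 0.188).

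PLXNA1, another A-type plexin, had values in the other direction. It was at 9.60, 9.57 and 9.59 in TβRIII-KD and at 9.84, 9.92 and 9.85 in controls. The groups did not overlap, and the log2 fold change of -0.29 (SE 0.07) did not pass the test (adjusted p = 0.0613). PLXND1, the SEMA3E receptor, was at 8.83, 8.85 and 9.39 in TβRIII-KD and at 8.97, 8.90 and 8.84 in controls. Only TβRIII-KD 3 was above the controls, and the log2 fold change was 0.12 (95% confidence interval -0.21 to 0.45, adjusted p = 0.753). The remaining plexins, PLXNA3, PLXNA4, PLXNB3 and PLXNC1, lay between -0.20 and -0.01.

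The Eph receptor EPHB6 had the largest change of all 66 members. EPHB6 lacks the catalytic activity of the other Eph kinases and signals through partners. Its log2 signal was 9.12, 8.99 and 8.97 in TβRIII-KD and 8.06, 7.87 and 7.71 in controls. The groups lay apart by more than the spread within either of them, at 9.03 ± 0.08 in TβRIII-KD and 7.88 ± 0.18 in controls (mean ± SD, n = 3 arrays per group). EPHB6 rose by 1.15 (SE 0.10, adjusted p = 0.000911), a 2.21-fold higher signal, and was number 21 by fold change among the 141 genes that were higher. It stayed past the cutoff without any 1 array.

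None of the other Eph receptors passed the test. With EPHB6 counted, 11 of the 13 Eph receptors lay above 0 (84.6%, against 54.5% of all genes). Every TβRIII-KD array lay above every control array for 4 of the 13 (30.8%, against 10.2% of all genes). EPHB1, EPHB3 and EPHB4 had log2 fold changes of 0.07, 0.05 and 0.00, with a 95% confidence interval of -0.20 to 0.19 for EPHB4, the receptor of ephrin-B2. The 9 EPHA receptors lay between -0.22 for EPHA4 and 0.17 for EPHA2, a receptor often raised in breast cancer. For EPHA4 the 95% confidence interval was wide, from -0.60 to 0.15. EPHA2 was at 9.44, 9.37 and 9.35 in TβRIII-KD and at 9.10, 9.36 and 9.19 in controls, with TβRIII-KD 3 just below control 2. EPHA10, which like EPHB6 is a catalytically inactive Eph receptor, had the smallest p of the A receptors. Its log2 fold change was 0.16 (SE 0.07, adjusted p = 0.378) in the brighter of its 2 transcript clusters and 0.00 in the other.

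Of the 8 ephrins, the ligands of Eph receptors, 0 passed the test in limma and their median was -0.06. An unadjusted p under 0.05 was found for 1 of the 8, where 15.6% of all genes had one. EFNA1, a ligand of EPHA2, had the largest difference of the ephrins. It was at 7.35, 7.03 and 7.21 in TβRIII-KD and at 7.57, 7.55 and 7.70 in controls. The groups did not overlap, TβRIII-KD being the lower one. The log2 fold change of EFNA1 was -0.41, with an SE of 0.10 and an adjusted p of 0.0607. Without TβRIII-KD 1 its adjusted p was 0.0480 (0.0451 to 0.251 over all alternatives). EFNB2, the ligand of EPHB4, was at 8.15, 7.61 and 7.62 in TβRIII-KD and at 7.68, 7.66 and 7.93 in controls, and the groups overlapped. EFNB3, the ephrin-B member with the smallest p, had a value of 0.20 (SE 0.09, adjusted p = 0.356).

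**Figure D4:**
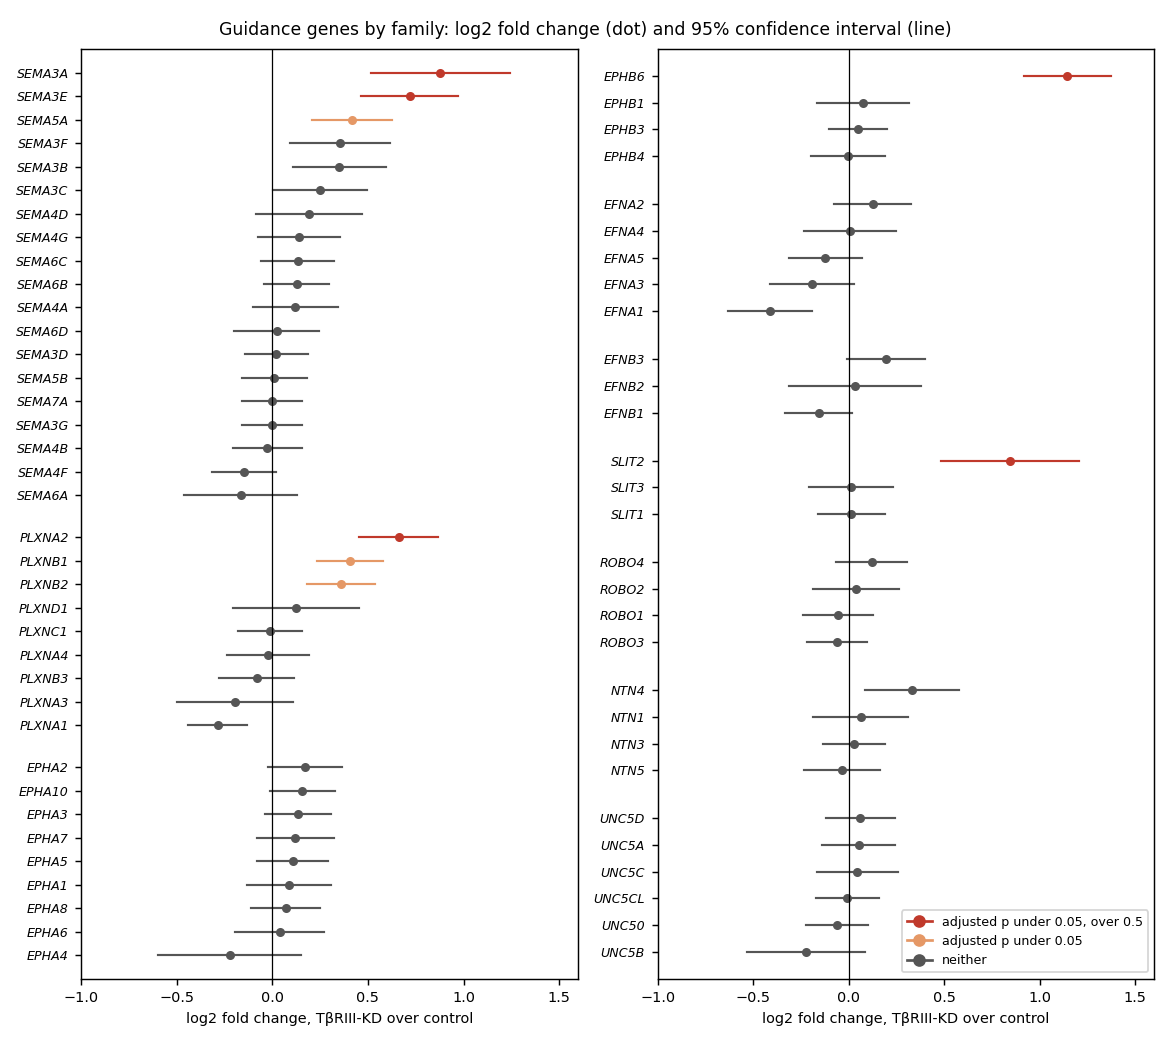
Log2 fold change between TβRIII-KD and control (horizontal axis) for the 66 guidance genes, grouped by family and ordered by value, where each dot is the fold change and each line spans its 95% confidence limits in the limma fit, with 3 arrays in each group. Red marks the 5 genes past the cutoff, from 0.66 for PLXNA2 to 1.15 for EPHB6, orange marks genes with an adjusted p under 0.05 alone, and the remaining genes are grey.

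SLIT2 was the member of its family that differed. SLIT2, a secreted ligand of Robo receptors, had a log2 signal of 9.19, 9.53 and 9.01 in TβRIII-KD and of 8.28, 8.68 and 8.22 in controls. The second array was the highest in each group, and the groups did not overlap. SLIT2 rose by 0.85 (SE 0.16, adjusted p = 0.0255), a 1.80-fold higher signal. Its adjusted p was 0.0627 when TβRIII-KD 1 was left out, 0.0853 for TβRIII-KD 2, 0.117 for control 1 and 0.0966 for control 3, within a range of 0.00104 to 0.244 over the alternatives. SLIT1 and SLIT3 both had a log2 fold change of 0.01. The Robo receptors lay between -0.06 and 0.12. ROBO1, a main SLIT2 receptor, was at 9.76, 9.81 and 9.98 in TβRIII-KD and at 9.90, 9.91 and 9.91 in controls, a log2 fold change of -0.06 (95% confidence interval -0.24 to 0.12). ROBO4, the vascular Robo and the one with the smallest p, had a value of 0.12 (SE 0.08, adjusted p = 0.554).

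Netrins and UNC5 receptors did not pass the test. NTN4, a netrin of basement membranes that binds laminin, had the largest value. It was at 8.98, 8.62 and 8.65 in TβRIII-KD and at 8.34, 8.50 and 8.42 in controls, so the groups did not overlap, and the log2 fold change was 0.33 (SE 0.11, adjusted p = 0.165). NTN1, the classical attractant, was at 0.06, NTN3 at 0.03 and NTN5 at -0.03. Of the genes named UNC5, UNC5B had the smallest p. It was at 9.10, 9.09 and 9.47 in TβRIII-KD and at 9.64, 9.47 and 9.23 in controls, and the groups overlapped (log2 fold change -0.22, SE 0.14, adjusted p = 0.505). UNC5A, UNC5C and UNC5D lay between 0.04 and 0.06, and UNC50 and UNC5CL at -0.06 and -0.01.

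Of 80 listed partners and effectors of these families, 73 were measured, 0 were higher past the cutoff in limma and 2 were lower (2.74% of the 73, against 1.55% of all genes), while 18 of the 73 had an unadjusted p under 0.05, where 15.6% of all genes did. The lower genes were L1CAM and VAV3. L1CAM, an adhesion molecule that acts with neuropilin-1 in SEMA3A responses, was at 6.65, 6.57 and 6.55 in TβRIII-KD and at 7.71, 7.05 and 7.89 in controls, and fell by 0.96 in log2 units (SE 0.19, adjusted p = 0.0316). VAV3, a signaling protein of the Vav family, was at 6.52, 6.20 and 6.57 in TβRIII-KD and at 7.20, 7.35 and 6.93 in controls, and fell by 0.73 (SE 0.13, adjusted p = 0.0235). For both genes the groups did not overlap. The mean signals of L1CAM and VAV3 lay at percentiles 37.8 and 32.5 of all transcript clusters, below the median. The adjusted p of L1CAM lay above 0.05 without any 1 array except control 2, and that of VAV3 without any 1 array except TβRIII-KD 3 and control 3.

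Without the fold limit, 3 cytoplasmic effectors were higher and FYN, a Src-family kinase used by plexins and Eph receptors, was lower together with L1CAM and VAV3. The 3 higher and the 3 lower genes were each 4.11% of the 73, where 1.26% of all genes were higher and 2.22% were lower. SRGAP1, a GTPase-activating protein that binds Robo receptors, rose by 0.40 (SE 0.08, adjusted p = 0.0335). LIMK1, the kinase that phosphorylates cofilin, rose by 0.40 (SE 0.09, adjusted p = 0.0490), and ENAH, an actin regulator of the Ena/VASP family, rose by 0.33 (SE 0.07, adjusted p = 0.0486). FYN fell by 0.45 (SE 0.09, adjusted p = 0.0339). The adjusted p of each of these 4 genes lay above 0.05 without any 1 array. The median log2 fold change of the 73 genes was 0.03.

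The neuropilins, co-receptors of the class 3 semaphorins, did not pass the test. NRP1 was at 10.67, 10.70 and 10.65 in TβRIII-KD and at 10.69, 10.60 and 10.64 in controls. This is a log2 fold change of 0.03 with a 95% confidence interval of -0.12 to 0.19. NRP2 was at 7.37, 7.30 and 6.77 in TβRIII-KD and at 6.62, 6.77 and 6.45 in controls, where TβRIII-KD 3 lay next to control 2. Its log2 fold change was 0.53 (SE 0.16, adjusted p = 0.134), and it passed the cutoff without TβRIII-KD 3.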

How the data were processed

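RNA of 3 TβRIII-KD and 3 control SUM159 samples was hybridized to Affymetrix Human Gene 1.0 ST arrays. The deposited log2 values are RMA signals per transcript cluster (background-corrected, quantile-normalized and summarized by median polish), which the authors computed with oligo under R 3.0.1. How the 22148 transcript clusters were chosen is not given in the sources used here. The number of arrays limits the precision, and no detection call was used.
Probes were named from the platform annotation (19129 transcript clusters with 1 symbol, 1735 with several, 1284 with none), and a gene was taken by its transcript cluster with the highest mean. All 66 member symbols matched RefSeq. The comparison of TβRIII-KD with control was fitted in limma 3.58.1 under R 4.3.3 (empirical Bayes without trend, two-sided), adjusted by Benjamini-Hochberg for the whole table. SE is limma's moderated standard error. The cutoff is that of the study. The procedure was tested on simulated data. An exact permutation test of 3 arrays against 3 cannot go below p = 0.1, the value for each gene whose groups do not overlap among those with an adjusted p under 0.05.
The genes named are the members with an adjusted p under 0.05, the 12 with the largest change, the one with the smallest p in each family, TGFBR3, and partner genes past the cutoff or among the 6 smallest p-values. Others were chosen after their values were seen. Members and lists were chosen with earlier results of these data known.
Alternatives were an intensity trend, robust moderation, array weights, the unpaired t-test of the study's statistics section, transcript clusters at or above the median signal or with 1 symbol, median centring, a second quantile normalization, a fold limit of 1, averaging over the transcript clusters of 1 gene, a replicate block, and leaving out each array.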

Additional observations from a re-analysis of the deposited data

How the results depend on the processing

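Of the 5 guidance genes past the cutoff, all remained under a trend, robust moderation, array weights, 1-symbol transcript clusters, median centring, repeated quantile normalization and averaging over the transcript clusters of 1 gene. By the t-test of the study's statistics section with Benjamini-Hochberg adjustment, 0 guidance genes passed with or without the fold limit, 0 partners were lower, and 1 transcript cluster was higher and 16 were lower of all. Transcript clusters at or above the median signal left 114 higher in all and 2 guidance genes past the cutoff (EPHB6 and SLIT2, as the others lie below that median). In this setting 5 guidance genes were higher and 1 (PLXNA1) was lower without the fold limit. It gave 0 lower partners past the cutoff, as L1CAM and VAV3 lie below that median and were left out. A fold limit of 1 left 1 guidance gene (EPHB6), 0 lower partners, and 37 higher and 103 lower transcript clusters. Without the fold limit, 1 guidance gene (PLXNA1) was lower with a trend, and 3 (EFNA1, PLXNA1 and SEMA4F) by the unadjusted t-test. Array weights gave 1 higher partner (RND3). The adjusted p of TGFBR3 (log2 fold change -0.79 in both) was 0.198 by the t-test with adjustment. PLXNB2 had an adjusted p of 0.0515 after median centring, and SEMA5A 0.0599 after it and 0.0549 after repeated quantile normalization.
With each array left out in turn, guidance genes past the cutoff numbered 3 to 5 (EPHB6 and PLXNA2 each time), those without the fold limit 3 to 5 higher and 0 to 1 lower, partners 0 to 1 higher (SDC1 or NRP2) and 0 to 1 lower, and all transcript clusters 88 to 251 higher and 215 to 387 lower. The guidance median was 0.019 to 0.069, and the log2 fold change of TGFBR3 was -0.89 to -0.67, with an adjusted p of 0.0625 when TβRIII-KD 2 was dropped, 0.0770 when control 1 was and 0.0554 when control 2 was.
Nothing in the labels ties same-numbered arrays, so the numbers were not taken as pairs. The deviations of same-numbered arrays from their group means correlated at -0.06, 0.11 and 0.31. Not every array correlated best with its own number, and so few arrays cannot settle whether they are pairs. A replicate block gave 5 guidance genes past the cutoff, 7 higher (without PLXNB2) and 1 lower (EFNA1) without the fold limit, and 1 higher partner (NRP2). With this block, 229 transcript clusters were higher and 387 lower past the cutoff in all. Among the genes taken by the naming rule, no direction reversed under these alternatives. Of other genes in the text, several with small log2 fold changes change direction when 1 array is left out. For example, the array values of EFNB2 turn lower without TβRIII-KD 1 and those of PLXND1 without TβRIII-KD 3. Those of SLIT1, SLIT3 and EPHB1 turn lower without TβRIII-KD 2. With 3 arrays per group, small changes may be missed.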
